A study of Rattus norvegicus with 12 samples.

Results

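The small leucine-rich proteoglycans are secreted matrix proteins built around leucine-rich repeats, and 10 of their genes were followed here: Dcn, Bgn, Fmod, Lum, Ogn, Prelp, Aspn, Omd, Podn and Ecm2. Members were found by an exact match of the gene name in the deposited table, which gave 9 of the 10 among 23526 named entries, since no entry carried the name Podn. The libraries came from the right ventricle (RV) and left ventricle (LV) free walls of 6 adult male Sprague-Dawley rats, 3 to 4 months old and carrying no transgene or engineered allele. The rats spent 2 weeks either in a hypobaric chamber at 10% O2 or in room air. This gave 4 groups of 3 libraries: RVN and LVN from the normoxic rats 1, 2 and 3, and RVH and LVH from the hypoxic rats 1, 2 and 4. Both chambers of every heart were sequenced. Replicate numbers below are the rat numbers, and a number names different rats in normoxia and hypoxia.

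These proteins bind fibrillar collagens and set the diameter and spacing of the fibrils. In the heart most of them are made by fibroblasts. Decorin (Dcn), biglycan (Bgn) and asporin (Aspn) form 1 class of the family by sequence. Lumican (Lum), fibromodulin (Fmod), Prelp and osteomodulin (Omd) form another, and osteoglycin (Ogn, also called mimecan) belongs to a further class. Decorin and biglycan carry chondroitin or dermatan sulfate chains and bind TGF-beta, and soluble biglycan is known as a ligand of Toll-like receptors. Ecm2 is a related leucine-rich matrix protein.

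Several members lie side by side in the rat genome. In the RefSeq annotation of the GRCr8 assembly, Dcn and Lum are adjacent among the members on chromosome 7, with the cornea and cartilage members Kera and Epyc after them. Ogn, Omd, Aspn and Ecm2 follow each other on chromosome 17, all inside the span of Cenpp, which is on the other strand. Prelp and Fmod lie together on chromosome 13, Bgn is on chromosome X and Podn is on chromosome 5. RefSeq promoter sequences matched 7 of the 10 members. The 250 bases before the start are shown for Lum and Aspn, whose RVH libraries were all above the RVN libraries, and for Ogn, whose RVH libraries were not above RVN. Capitals mark the motifs searched, on both strands. These were the TATA box (TATAAA) and the binding word of NF-Y (CCAAT), the SMAD word (CAGAC) of the TGF-beta pathway, the AP-1 word (TGACTCA, or with a central G, TGAGTCA), and the core words of the hypoxia response element (ACGTG, or with a first G, GCGTG). All 3 sequences are from GRCr8, at chr7:34245456-34245705 (plus strand) for Lum, chr17:15310470-15310719 (minus strand) for Aspn and chr17:15258996-15259245 (minus strand) for Ogn.
Lum: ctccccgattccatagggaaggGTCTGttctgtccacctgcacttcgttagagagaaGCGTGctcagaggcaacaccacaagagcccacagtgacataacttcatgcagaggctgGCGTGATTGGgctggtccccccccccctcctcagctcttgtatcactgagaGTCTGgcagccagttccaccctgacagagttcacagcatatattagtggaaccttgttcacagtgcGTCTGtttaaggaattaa
Aspn: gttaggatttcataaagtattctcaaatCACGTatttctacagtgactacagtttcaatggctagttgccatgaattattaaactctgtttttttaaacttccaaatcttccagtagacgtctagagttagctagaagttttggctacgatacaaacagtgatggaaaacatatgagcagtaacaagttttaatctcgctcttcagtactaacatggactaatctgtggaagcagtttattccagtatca
Ogn: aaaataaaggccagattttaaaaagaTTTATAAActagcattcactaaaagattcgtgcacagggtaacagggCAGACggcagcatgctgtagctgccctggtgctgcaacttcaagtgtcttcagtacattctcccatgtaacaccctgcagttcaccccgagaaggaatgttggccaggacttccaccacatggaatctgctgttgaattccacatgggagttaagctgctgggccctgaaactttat
The Lum window held 3 CAGAC (each read as GTCTG), 2 GCGTG and 1 CCAAT, of which 1 GCGTG runs directly into the CCAAT (read as ATTGG). The Aspn window held only 1 ACGTG (read as CACGT), and the Ogn window held 1 CAGAC and 2 overlapping TATAAA on opposite strands. Of 33469 rat promoters of this length, 42.9% held CAGAC, 36.7% ACGTG or GCGTG, 34% CCAAT, 12.9% TATAAA and 4.05% TGACTCA or TGAGTCA.

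Levels are given as TPM, the authors' transcript abundance, a measure per transcript length with the same total in every library that can be compared between genes. Estimated counts summed to 21468274 to 39991848 in a library, and mitochondrial RNA made up 45.07% to 50.56% of a normoxic library and 38.26% to 44.1% of a hypoxic one. The mitochondrial share thus moved with the exposure without overlap, and its part in the TPM levels was not tested beyond the TMM scaling used in the fit. Members had from 8989 to 20160 estimated counts in a library for Dcn, 1302 to 10299 for Bgn, Lum and Ogn, 162 to 1317 for Prelp and Aspn, 13 to 294 for Fmod, 0 to 88 for Ecm2 and 0 to 15 for Omd. LVH replicate 1 stood apart from its group. Its 4 atrial markers summed to 524 TPM against 19.1 and 33.7 TPM in LVH replicates 2 and 4, although the methods state that the atria were removed. RVN replicates 2 and 3 also had high atrial sums, of 235 and 174 TPM, which came mainly from Sln at 207 and 145 TPM, while Myl7, a defining atrial marker, was at 24.4 and 26.1 TPM there and at 165 TPM in LVH replicate 1. Myocyte markers summed to 49682 to 65923 TPM and fibroblast markers to 743 to 1244 TPM over the 12 libraries. The 9 epicardial and mesothelial markers summed to 5.55 to 27.2 TPM, with Msln at 0.0328 to 6.47 TPM and Wt1 at 3.39 to 5.60 TPM.

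Dcn was the most abundant member in all 12 libraries and changed little, while the members below it changed their order with hypoxia. Bgn and Lum rose in the hypoxic RV, and Ogn did not. In all 6 normoxic libraries Ogn was the second most abundant member, above Bgn and Lum. In all 6 hypoxic libraries Lum was above Ogn. This order within a library does not depend on how libraries were scaled. Dcn did not overlap with Bgn in any group, and Ogn did not overlap with Prelp in any group. Bgn and Lum overlapped in every group, Bgn being the higher in 7 of 12 libraries, so their order over all libraries was within the spread. By group, Bgn was the higher in 3 of 3 RVH, 2 of 3 RVN, 1 of 3 LVN and 1 of 3 LVH libraries. Aspn was the sixth in all libraries but RVH replicate 1, where it was above Prelp.

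**Figure D1:**
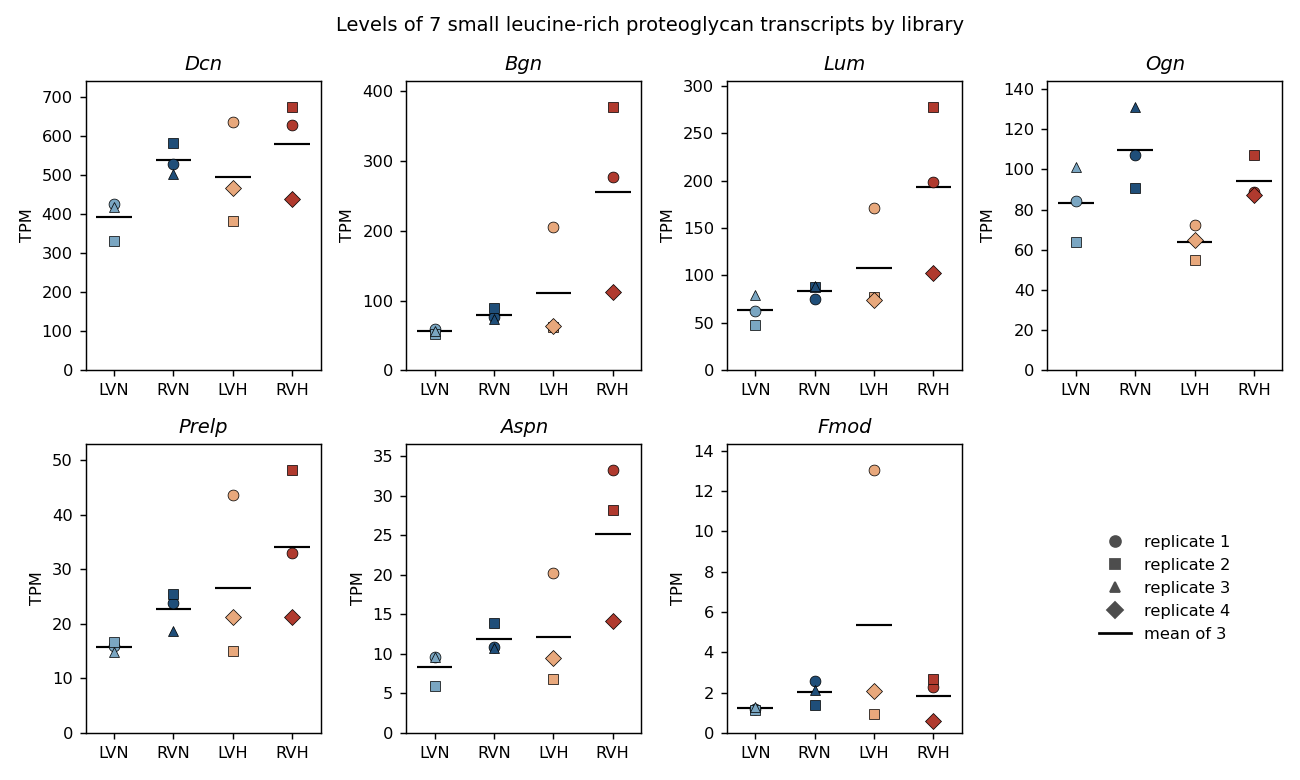
TPM (vertical axes, linear and starting at 0) of 7 members in the 12 libraries, by group on the horizontal axes, with the replicate given by the symbol and the mean of 3 as a bar. RVH replicate 4 is the lowest RVH library for Bgn (113 TPM) and Lum (103 TPM), and LVH replicate 1 is far above the other LVH libraries for Fmod (13.0 TPM).

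The 9 members summed to 850 ± 38.0 TPM in RVN, 621 ± 89.2 TPM in LVN, 1186 ± 375 TPM in RVH and 824 ± 299 TPM in LVH (mean ± SD, n = 3). Dcn alone made up 44.5% to 66.3% of this sum. The share of Bgn was 8.28% to 9.97% in the normoxic libraries, against 21.9%, 24.9% and 14.5% in RVH replicates 1, 2 and 4. In LVH it was 17.6% in replicate 1, and 10.2% and 9.02% in replicates 2 and 4.

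The comparison of RVH with RVN asks what chronic hypoxia does to the RV, the chamber that pumps against the hypoxic lung. Bgn and Lum rose in it, and these were 2 of the 9 members tested (edgeR's quasi-likelihood test, p adjusted by Benjamini and Hochberg over 13756 genes, threshold 0.05). None fell. Of all genes 15% were called and 7.43% were called higher, so calls were common in this comparison. The median log2 fold change of 7 members, leaving out Omd and Ecm2 as near 0, was 0.45, with 4 of them positive, against 0.00 over all genes.

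Bgn was at 76.5, 89.1 and 73.1 TPM in RVN replicates 1, 2 and 3 and at 278, 377 and 113 TPM in RVH replicates 1, 2 and 4. All RVH libraries were above all RVN libraries, and RVH replicate 4 was much nearer to RVN than the other RVH libraries were. The log2 fold change was 1.52 ± 0.40 (SE; adjusted p = 0.0305, edgeR), or 2.87-fold.

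Lum, which binds collagen and is known for the ordered fibrils of the cornea, was at 75.5, 88.1 and 88.3 TPM in RVN and at 199, 277 and 103 TPM in RVH. The groups did not overlap, and RVH replicate 4 was again the lowest of its group. The log2 fold change was 1.04 ± 0.31 (SE; adjusted p = 0.0425, edgeR), or 2.06-fold.

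Aspn, a relative of decorin with a run of aspartates in place of the chain attachment site, was at 10.8, 13.9 and 10.8 TPM in RVN and at 33.2, 28.2 and 14.1 TPM in RVH. The groups did not overlap, though RVH replicate 4 and RVN replicate 2 were close. Its log2 fold change of 0.95 ± 0.32 (SE) did not pass the test (adjusted p = 0.0705, edgeR). DESeq2 (adjusted p = 0.0347) and edgeR's likelihood ratio test (adjusted p = 0.0323) called it, and over 14 alternatives the adjusted p ran from 0.0272 to 0.237.

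The other members did not pass this test. Prelp, which links collagen to basement membranes, was at 18.6 to 25.6 TPM in RVN and 21.3 to 48.2 TPM in RVH (log2 fold change 0.45 ± 0.28 SE, adjusted p = 0.299, edgeR). Dcn was at 529, 583 and 504 TPM in RVN and 630, 674 and 438 TPM in RVH. Its log2 fold change was -0.03 ± 0.14 (SE; adjusted p = 0.926, edgeR), and the sign turned to 0.11 with library totals in place of TMM scaling. TMM is the trimmed mean scaling of edgeR, which sets the bulk of genes equal between libraries. Ogn was at 107, 90.7 and 131 TPM in RVN and at 88.6, 107 and 87.5 TPM in RVH, with overlap and a log2 fold change of -0.34 ± 0.16 (SE; adjusted p = 0.181, edgeR). After TMM scaling the groups met, with 78.9 to 88.908 scaled CPM in RVH and 88.911 to 128 in RVN, formally without overlap, as were 20% of all genes on the lower side. Fmod overlapped too, at 1.38 to 2.57 TPM in RVN and 0.577 to 2.67 TPM in RVH.

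After TMM scaling, Bgn, Lum and Aspn were the 3 members of 9 without overlap on the higher side in RVH, against 18.6% of all genes tested. Over the 14 alternatives run, Bgn was called in 7 (adjusted p from 0.00119 to 0.123) and Lum in 4 (0.00580 to 0.172). Without RVH replicate 4 both were called together with Aspn (adjusted p = 0.00888, 0.0120 and 0.0272, edgeR). Without RVH replicate 1 or 2, or without RVN replicate 1, 2 or 3, no member was called, and the log2 fold change of Bgn was then 1.23 to 1.60. Calls over all genes moved too, from 1022 higher and 1045 lower with all libraries to 1129 and 1331 without RVH replicate 4. They were 400 and 334 without RVH replicate 1 and 321 and 278 without RVH replicate 2. Without RVN replicate 1, 2 or 3 they were 295 and 324, 661 and 702, and 368 and 437.

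**Figure D2:**
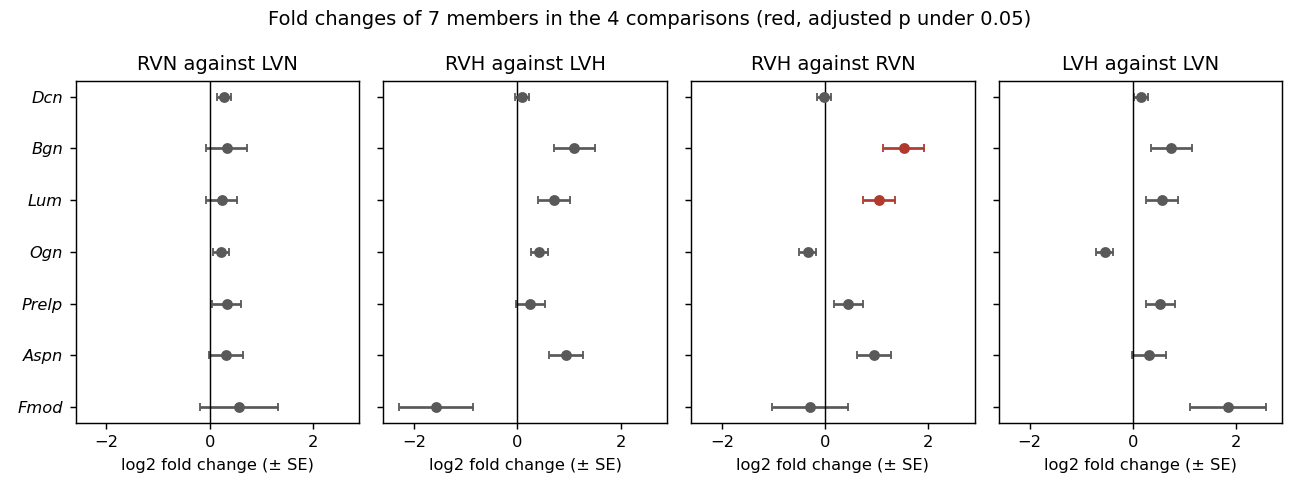
Log2 fold change (horizontal axes) of 7 members in 4 comparisons from the edgeR fit, with standard errors derived from its F statistic as bars and adjusted p under 0.05 in red. Bgn at 1.52 and Lum at 1.04 in RVH against RVN are in red, and no member is in the other panels.

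Other signals moved with Bgn and Lum in the RV, and their part in the result was not tested. The 10 macrophage markers summed to 287 to 503 TPM in RVH and 173 to 239 TPM in RVN, with 5 called higher and none lower, among them Lyz2 with a log2 fold change of 0.96 ± 0.25 (SE; adjusted p = 0.0286, edgeR). The 11 genes of activated fibroblasts summed to 381, 397 and 146 TPM in RVH replicates 1, 2 and 4 and to 114 to 162 TPM in RVN, and 6 were called higher and none lower. Of the 13 general fibroblast markers 12 were tested, and 4 rose (Dpt, Mfap5, Pi16 and Thy1) and 2 fell (Gsn and Abca8a). Dpt, a collagen-binding matrix protein, was at 101, 125 and 90.6 TPM in RVN and at 241, 267 and 127 TPM in RVH. The mean log2 deviation of the list from its average over libraries was 0.55, 0.59 and 0.0559 in RVH replicates 1, 2 and 4 and -0.10 to 0.25 in RVN, so RVH replicate 4 was the lowest of RVH here too. The summed TPM of the list, 765 to 1219 in RVH and 1067 to 1244 in RVN, was mostly Gsn, an actin-severing protein, which fell by 0.96 on the log2 scale. Of 11 myocyte markers 4 fell and none rose. In tissue RNA, fewer cells of a type and less RNA per cell cannot be told apart. Of 5 tendon and valve genes tested, Thbs4 rose by 4.82 and Cilp by 2.35 on the log2 scale, while Tnmd, which defines tendon cells, was at 0 to 0.0793 TPM in RVH (adjusted p of the first pair 0.0102 and 0.0127, edgeR). Emcn rose and Kdr fell among 9 endothelial markers, Mcam rose among 10 of smooth muscle and pericytes, and no call was made among 8 epicardial, 3 atrial and 3 red cell markers.

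The level of a member relative to Dcn within the same library needs no scaling between libraries. Bgn was at 13.5% to 15.5% of Dcn in all 6 normoxic libraries, a narrow range over both ventricles. In RVH it was at 44.1%, 56.0% and 25.7% in replicates 1, 2 and 4, and in LVH at 32.2%, 16.1% and 13.6%. RVH libraries were thus all above RVN, and 2 of the 3 LVH libraries lay close to the normoxic range. Lum was at 14.3% to 18.9% of Dcn in normoxia, at 31.6%, 41.1% and 23.4% in RVH, and at 26.8%, 20.3% and 15.9% in LVH. Aspn was at 1.80% to 2.39% of Dcn in normoxia, at 5.28%, 4.18% and 3.23% in RVH, and at 3.17%, 1.77% and 2.04% in LVH. Ogn went the other way in the LV, at 11.3%, 14.3% and 13.9% of Dcn in LVH against 19.2% to 24.2% in LVN.

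Between RVH and RVN the log2 difference of the ratio to Dcn was 1.44 for Bgn, 1.00 for Lum, 0.92 for Aspn and 0.44 for Prelp. Each was without overlap and had p = 0.1 in a two-sided exact permutation test, the smallest p that 3 against 3 allows. The share of all genes without overlap in this ratio was not computed. In their own TMM-scaled level, 18.6% of all genes were higher without overlap. Prelp overlapped in its own level, and Dcn in RVH replicate 4 (438 TPM) was below all RVN libraries (504 to 583 TPM). Of 24 such tests over 6 members and 4 comparisons, 6 gave this smallest p and 0 could fall under 0.05. All 24 used Dcn as the denominator and the same 12 libraries, so they were not independent. The other tests at that p were Ogn in LVH against LVN (-0.68) and Aspn in RVH against LVH (0.88).

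**Figure D3:**
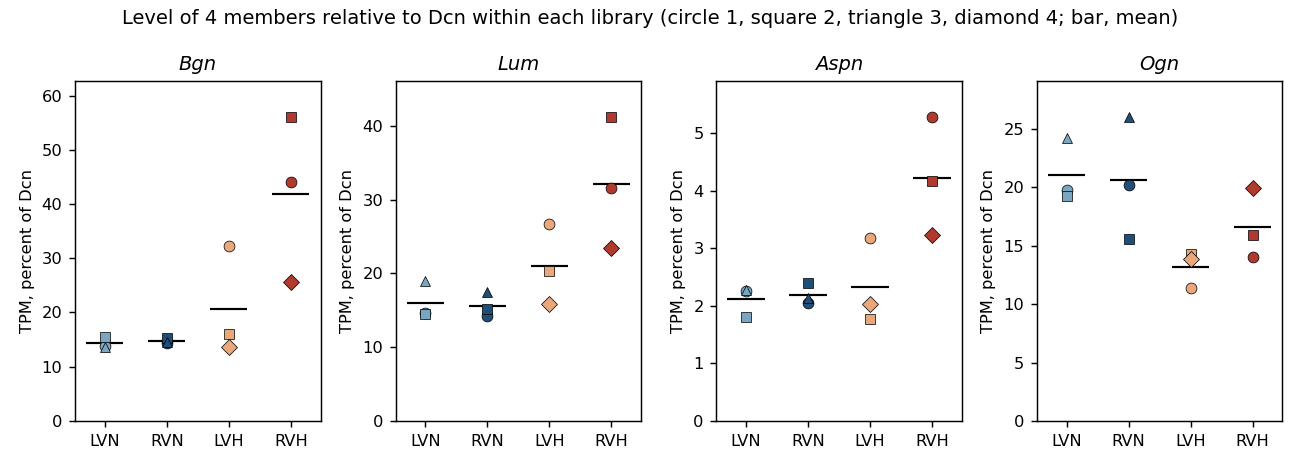
TPM of Bgn, Lum, Aspn and Ogn as a percentage of Dcn in the same library (vertical axes, starting at 0), by group, with symbols for replicates and bars for means of 3. The 6 normoxic libraries lie between 13.5% and 15.5% for Bgn, and the RVH libraries lie between 25.7% and 56.0%.

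The comparison of LVH with LVN puts the same exposure to the other chamber. No member was called in it by edgeR, where 1.37% of all genes were called. At an unadjusted p under 0.05, Fmod was higher and Ogn lower, as were 1200 and 1220 of all 13756 genes tested. The likelihood ratio test of edgeR and limma on log2(TPM + 1) called 0 members, and DESeq2 called Ogn. The median log2 fold change of the same 7 members was 0.53, with 6 positive, against 0.01 over all genes, and without LVH replicate 1 it was 0.13, with 5 positive.

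Ogn, a collagen-binding proteoglycan known in the heart for its link to ventricular mass, was at 84.3, 63.8 and 101 TPM in LVN and at 72.3, 54.8 and 64.9 TPM in LVH. These TPM ranges overlapped. After TMM scaling Ogn was at 97.6, 70.7 and 110 scaled CPM in LVN and at 62.5, 64.3 and 64.6 in LVH, without overlap, as were 11.3% of all genes on the lower side. The log2 fold change was -0.54 ± 0.16 (SE; adjusted p = 0.129, edgeR), and DESeq2 gave an adjusted p of 0.0465, the lowest of 14 alternatives (highest 0.435).

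Bgn was at 58.7, 51.4 and 56.7 TPM in LVN and at 205, 61.6 and 63.6 TPM in LVH. Only LVH replicate 1 was far from LVN. The log2 fold change was 0.75 ± 0.40 (SE; adjusted p = 0.355, edgeR), and without that library it was 0.13. Lum was at 62.1, 48.03 and 79.3 TPM in LVN and at 171, 77.7 and 74.2 TPM in LVH, again with LVH replicate 1 highest. In that library Prelp was at 43.7 TPM, against 15.05 and 21.3 TPM in LVH replicates 2 and 4 and 14.8 to 16.7 TPM in LVN. Aspn was at 20.2 TPM there, against 6.76 and 9.52 TPM in the rest of LVH and 5.97 to 9.60 TPM in LVN.

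Fmod, which binds collagen at a site shared with lumican and is abundant in tendon, was at 1.19, 1.15 and 1.31 TPM in LVN and at 13.0, 0.960 and 2.08 TPM in LVH. Its log2 fold change of 1.84 ± 0.74 (SE; adjusted p = 0.230, edgeR) came to 0.24 without LVH replicate 1. That library also had the highest Tnmd (0.964 TPM), Chad (2.06 TPM) and Comp (3.10 TPM) of all 12, genes of tendon and cartilage, beside its atrial markers. Its Postn, a matrix protein of activated fibroblasts and valves, was at 71.5 TPM against 2.84 and 5.45 TPM in LVH replicates 2 and 4. The part of these signals in the levels of Fmod, Bgn, Lum, Prelp and Aspn in LVH replicate 1 was not tested.

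Whether hypoxia acted differently on the ventricles was tested as the difference between the hypoxia effects. Of all genes 0% were called by edgeR, with 541 positive and 505 negative at an unadjusted p under 0.05, 19 and 9 called by edgeR's likelihood ratio test and 10 and 4 by DESeq2. No member was called by these tests or by limma on log2(TPM + 1), and 0 members had an unadjusted p under 0.05. For Bgn the hypoxia effect was larger in the RV by 0.77 ± 0.56 on the log2 scale (SE; adjusted p = 0.779, edgeR), and by 1.42 without LVH replicate 1 and 0.46 without RVH replicate 2. For Fmod the difference was -2.14 ± 1.04 (SE; adjusted p = 0.661, edgeR), and -0.52 without LVH replicate 1. The rise of Bgn and Lum was called in the RV and not in the LV, and the difference between the ventricles was not shown.

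The comparisons of the ventricles ask how the chambers of the same heart differ. In normoxia no member was called in RVN against LVN, where 0.0218% of all genes were called. No member had an unadjusted p under 0.05, against 657 higher and 621 lower of all 13756 genes tested. The likelihood ratio test of edgeR, DESeq2 and limma on log2(TPM + 1) called 0 members. In TPM, 5 of 9 members (Dcn, Bgn, Fmod, Prelp and Aspn) were higher in RVN without overlap, against 29.7% of all genes. After TMM scaling only Dcn and Bgn were, against 9.97% of all genes. Dcn was at 529, 583 and 504 TPM in RVN and 426, 332 and 419 TPM in LVN, with a log2 fold change of 0.27 ± 0.14 (SE; adjusted p = 0.569, edgeR). The 12 fibroblast markers tested all had a positive fold change in the same comparison, with none called and a median of 0.44. Macrophage markers and most epicardial markers moved the same way between the ventricles, and most myocyte and endothelial markers the other way. The part of all these in the members' values was not tested. The 10 macrophage markers were all positive in RVN against LVN (median 0.77, none called), in RVH against LVH (median 0.95, 1 called) and over both exposures (median 0.84, 5 called higher). Of 8 epicardial markers tested, 6, 6 and 7 were positive in these comparisons, with medians of 1.46, 1.39 and 1.51 and none called, and Wt1 was at -0.40 in the first. Of 11 myocyte markers 3, 0 and 0 were positive, with medians of -0.14, -0.44 and -0.30 and none called. Of 9 endothelial markers 2, 4 and 2 were positive, with medians of -0.18, -0.03 and -0.11 and 1 called lower over both exposures. Fibroblast markers in RVH against LVH were positive in 9 of 12 (median 0.51), with Gsn called lower (adjusted p = 0.0293, edgeR).

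In hypoxia no member was called in RVH against LVH, where 0.451% of all genes were called. Bgn, Aspn, Lum and Ogn were higher and Fmod lower at an unadjusted p under 0.05, as were 1166 and 1134 of all 13756 genes tested. The likelihood ratio test of edgeR, DESeq2 and limma on log2(TPM + 1) called 0 members. The log2 fold change was 1.11 ± 0.40 for Bgn (SE; adjusted p = 0.197, edgeR), with 278, 377 and 113 TPM in RVH and 205, 61.6 and 63.6 TPM in LVH, which overlapped. Aspn had a log2 fold change of 0.94 ± 0.32 (SE; adjusted p = 0.179, edgeR). Without LVH replicate 1 both were called, Bgn at 1.75 (adjusted p = 0.0267) and Aspn at 1.39 (adjusted p = 0.0417). These were the lowest adjusted p of 15 alternatives, of which the highest were 0.571 and 0.470. Calls over all genes rose too without LVH replicate 1, to 330 higher and 216 lower of 14081 tested. With all libraries they were 24 and 38 of 13756.

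Ogn was the only member whose RVH and LVH libraries did not overlap, at 88.6, 107 and 87.5 TPM in RVH and 72.3, 54.8 and 64.9 TPM in LVH. After TMM scaling it was again the 1 member of 9 higher without overlap, against 9.38% of all genes. The log2 fold change was 0.42 ± 0.16 (SE; adjusted p = 0.226, edgeR). With the rat as a block, which uses that both ventricles came from the same heart, it was 0.42 with an adjusted p of 0.0485 (up to 0.502 over 15 alternatives).

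Over both exposures no member was called in RV against LV, where 1.47% of all genes were called. At an unadjusted p under 0.05, Ogn, Aspn and Bgn were higher (Omd, near 0, had the 1 negative value). Of all 13756 genes tested, 1267 were higher and 1181 lower at that p. The likelihood ratio test of edgeR, DESeq2 and limma on log2(TPM + 1) called 0 members. For Ogn the log2 fold change was 0.32 ± 0.11 (SE; adjusted p = 0.178, edgeR), and with the rat as a block it was 0.32 with an adjusted p of 0.0291 (up to 0.348 over 21 alternatives). Within hearts 7 members were compared, leaving out Omd and Ecm2. Of these, Ogn, Bgn and Lum were each higher in the RV in 6 of 6 rats, both in TPM and after TMM scaling. Aspn was so in TPM only, and in 5 of 6 rats after scaling. Of all genes, 13.8% were higher in the RV of every rat in TPM and 6.74% after scaling. After scaling the lead of Lum in normoxic rat 3 was only 0.0048 on the log2 scale. The ratio of RV to LV in TPM was 1.22 to 1.95 for Ogn, 1.29 to 6.12 for Bgn and 1.11 to 3.57 for Lum. Rat 2 of the hypoxic group gave the highest ratio for each of these. Dcn was higher in the RV in 4 of 6 rats in TPM and in 5 of 6 after TMM scaling. Prelp was higher in 5 of 6 and Fmod in 4 of 6 by either measure. Without LVH replicate 1, Bgn (1.04, adjusted p = 0.0329) and Aspn (0.85, adjusted p = 0.0449) were called in the fit without the block. Over all genes 429 were then called higher and 299 lower of 14081, against 107 and 95 of 13756 with all libraries.

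**Figure D4:**
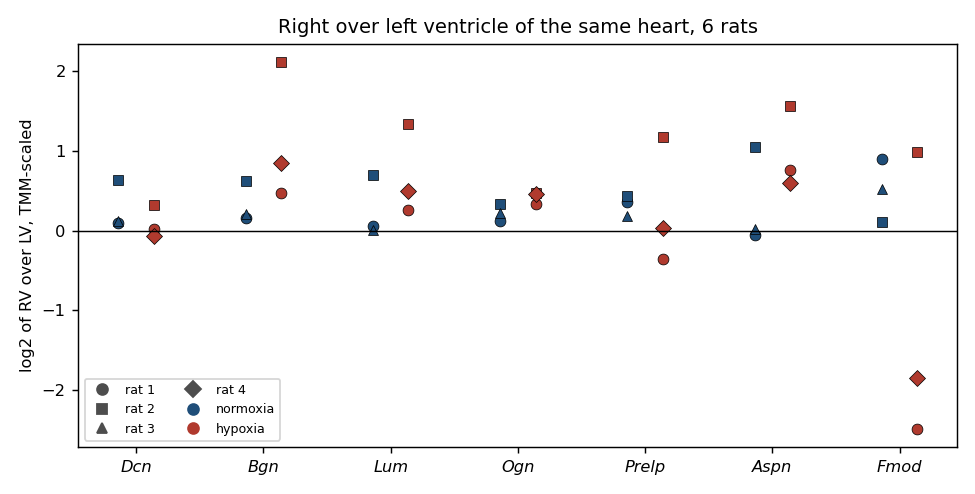
Log2 of the RV level over the LV level of the same heart after TMM scaling (vertical axis) for 7 members in 6 rats, normoxic in blue and hypoxic in red, with the rat number by symbol. All 6 points of Bgn, Lum and Ogn are above 0, and those of Fmod run from -2.49 to 0.98.

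Omd and Ecm2 were near the limit of the data. Omd, known from bone, was listed under 0.001 TPM in 7 of 12 libraries and reached at most 0.563 TPM, so no change is read from its fitted values. Ecm2 was listed under 0.01 TPM in 2 of 12 libraries and reached 3.04 TPM in LVN replicate 3. Its groups overlapped in every comparison. Omd and Ecm2 lie inside the span of Cenpp, as do Ogn and Aspn. The libraries were stranded, but whether the quantification used strand is not given in the sources used here.

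Members differed in how they varied over the 12 libraries. By the root mean square difference of centred log2 levels, Lum and Aspn were the closest pair (0.26), followed by Bgn and Lum (0.29) and Dcn and Prelp (0.31), while Bgn and Ogn were 0.91 apart. Dcn and Lum, neighbours on chromosome 7, were 0.48 apart, and Ogn and Aspn, neighbours of Omd on chromosome 17, were 0.67 apart. This measure also depends on how strongly each gene varied, not only on whether genes moved together. The root mean square deviation from the own mean was 0.18 for Dcn, 0.32 for Ogn and 0.41 for Prelp. For Lum it was 0.58, for Aspn 0.59, for Bgn 0.80 and for Fmod 0.94. Among 9297 genes, the nearest to Bgn were Fstl1, Serpinf1 and C1qtnf5 (0.18 to 0.19), all of which encode secreted proteins. Nearest to Lum were Fzd2 and Mfap4 (0.14) and Serpinf1 (0.16). Those nearest to Aspn were Nbl1 (0.16), C1qa and C2 (0.21), and to Prelp Mrc2 (0.11), Actn1 (0.12) and Ltbp3 (0.14). Dcn was nearest to Tmem17 (0.08), Txndc5 and Dnase2 (0.10), and Ogn to Rnf150 (0.11), Tmem196 and Zfp512b (0.16). Fmod had no close gene, the nearest being Thbs1 at 0.68. These likenesses describe 12 libraries that share rats, groups and scaling.

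The partners of the family were taken from lists of genes. Their calls below are in RVH against RVN, where 15% of all genes were called, unless another comparison is named. Of 9 fibrillar collagen genes and their associates tested in RVH against RVN, Col3a1 rose, with a log2 fold change of 1.29 ± 0.30 (SE; adjusted p = 0.0186, edgeR). All 9 were positive, with a median of 0.55, and Col1a1 was at 0.98 ± 0.32 (SE; adjusted p = 0.0618). Of 24 enzymes that build glycosaminoglycan chains, Dse, the epimerase that turns chondroitin into dermatan sulfate, rose by 0.72 and Chst15, which adds sulfate to chondroitin chains, fell by 0.87 on the log2 scale (adjusted p = 0.0436 and 0.0138, edgeR). The median of that list was 0.16. Of 10 enzymes that process or cut these proteoglycans, Bmp1, the procollagen C-proteinase that also removes the propeptide of biglycan, rose by 0.75 and its enhancer Pcolce by 1.07 (adjusted p = 0.0259 and 0.0177, edgeR), and none fell. Of 12 receptors and ligands, Tgfb1 rose by 0.42 and the endothelial receptor Kdr fell by 0.49 on the log2 scale (adjusted p = 0.0402 and 0.0265, edgeR). In LVH against LVN, where 1.37% of all genes were called, none of these 4 lists had a call. None had in RVN against LVN, where 0.0218% of all genes were called, or in RVH against LVH, where 0.451% were. Over both exposures, where 1.47% of all genes were called in RV against LV, Dse was called higher, with a log2 fold change of 0.72 (adjusted p = 0.0498, edgeR). Called lower were Kdr at -0.44 and Adamts1, of the enzymes that cut, at -1.16 (adjusted p = 0.0414 and 0.0293, edgeR). No collagen gene of the list was called there.

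Other family members outside the followed 10 were scarce. Of 8 listed, 3 passed the expression filter and none was called in RVH against RVN. Tsku, which binds several growth factors, was the most abundant, at 2.28, 2.37 and 2.02 TPM in RVN and 5.66, 5.75 and 2.83 TPM in RVH. Those groups did not overlap, and the log2 fold change was 0.96 ± 0.30 (SE; adjusted p = 0.0524, edgeR). Kera was listed at 0 in all 12 libraries.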

How the data were processed

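RNA from both ventricles of 6 rats was sequenced as 12 stranded libraries of polyadenylated RNA. The exposure was read from the sample titles, with CH taken as chronic hypoxia and NT as normoxia, since no other label of a library states it. Per the submitters' notes, reads were checked with FastQC and assigned with kallisto 0.43.1 to rat transcripts of Rnor_6.0, and the notes also name edgeR. The deposited table holds 23553 entries with TPM values and estimated counts made by the authors. Within a library the deposited estimated counts are proportional to TPM, and their totals stand for the depth only nominally. Numbers stood in for the name in 27 entries (0.0408% to 0.0621% of a library), which were not used.

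Estimated counts were rounded, filtered with filterByExpr (13756 genes left), scaled by TMM (factors 0.853 to 1.21) and fitted in edgeR 4.0.16 (R 4.3.3; quasi-likelihood test) with 4 group means over 12 libraries. The Benjamini-Hochberg adjustment ran over all genes, with a threshold of 0.05. The SE given with an edgeR fold change was derived, as the absolute log2 fold change over the square root of the test's F statistic. Alternatives were RLE size factors, library totals, edgeR's likelihood ratio test, DESeq2 1.42.0, no filter, limma 3.58.1 on log2(TPM + 1) or log2(TPM + 0.1), each library left out, and the rat as a block. Same-numbered ventricles come from the same heart, and their residuals correlated at 0.037 to 0.213 against -0.184 to 0.042 for other rats of the same exposure. Residuals were centred within each group, so these ranges were not independent of each other, and they overlapped. Tests were checked on simulated data. Ratios to Dcn were tested by exact permutation. Other calculations used Python 3.11.15, numpy 2.4.6 and pandas 2.3.3.

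Named genes were the 10 members, up to 3 genes of each list and comparison with the smallest adjusted p, and the 3 nearest genes by likeness; markers and single genes named for 1 library were chosen after their values were seen. Of 199 listed genes 189 matched. Members and lists were chosen with earlier results of these data known. Atrial, epicardial, red cell, endothelial, smooth muscle and tendon markers were listed beside fibroblast, myocyte and macrophage markers. The table gave no positions, and promoter sequences are from RefSeq on GRCr8, with no coordinates taken between builds.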

Additional observations from a re-analysis of the deposited data

How the results depend on the processing

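In RVH against RVN 2 members were called in the fit described above. The number was also 2 with RLE size factors, and 3 with edgeR's likelihood ratio test and DESeq2. It was 1 with library totals, without the low-count filter and with limma on log2(TPM + 1). With limma on log2(TPM + 0.1), or on log2(TPM + 1) without a filter, it was 0. Leaving out 1 library gave 0 to 3 there, 0 to 2 in RVH against LVH and in RV against LV over both exposures, and 0 in the other comparisons. With the rat as a replicate block, 1 member (Ogn) was called in RVH against LVH and 1 in RV against LV, and the block changed no other call of a member. DESeq2 called 1 member in LVH against LVN. The cause of these differences was not tested.

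Directions turned in 22 of the fold changes run, each for 1 member in 1 comparison and 1 setting. Of the rest, 10 gained a call, 17 lost one and 839 were counted as unchanged. Dcn in RVH against RVN was at 0.11 with library totals and 0.0859 with limma on log2(TPM + 1), filtered or not, and 0.0860 on log2(TPM + 0.1), and ran from -0.0708 to 0.0765 with 1 library left out. Leaving out 1 library gave -0.59 to 0.0781 for Fmod in RVH against RVN, -2.03 to 0.0417 in RVH against LVH and -0.73 to 0.30 in RV against LV, and -0.10 to 0.53 for Aspn in LVH against LVN. For Prelp the difference of the hypoxia effects ran from -0.33 to 0.33. Ecm2 ran from -0.17 to 5.86 in RVN against LVN, from -0.19 to 5.85 in LVH against LVN and from -1.06 to 2.17 in RV against LV, where limma on log2(TPM + 0.1) gave 0.12. The difference of the hypoxia effects for Omd ran from -1.73 to 4.39 and was -0.13 with limma without a filter. Of the members in this paragraph, only Ecm2 and Omd had levels at or near 0 in some libraries.

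Library totals in place of TMM shifted the median of all genes by 0.19 in RVN against LVN, 0.13 in RVH against LVH, 0.12 in RVH against RVN, 0.17 in LVH against LVN and 0.16 in RV against LV. Called genes were then 864 higher and 429 lower against 1022 and 1045 in RVH against RVN, 174 and 28 against 96 and 92 in LVH against LVN, 5 and 9 against 24 and 38 in RVH against LVH, and 102 and 31 against 107 and 95 in RV against LV. By edgeR's likelihood ratio test, 59 and 33 genes were called in RVN against LVN, against 2 and 1 in the fit described above. That test called 271 and 229 in RVH against LVH, 279 and 259 in LVH against LVN, and 372 and 279 in RV against LV. By DESeq2 the numbers in these comparisons, in the same order, were 30 and 40, 220 and 286, 317 and 249, and 278 and 355. With the rat block they were 102 and 155 in RVH against LVH and 231 and 250 in RV against LV. With limma on log2(TPM + 1), 825 and 427 were called in RVH against RVN. With 3 libraries a group, 1 library decides calls near the threshold, as above, and the 0 to 88 estimated counts of Ecm2 and the 0 to 15 of Omd allow no statement on these genes.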

Other observations

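Other proteoglycans of the ventricle were measured beside the family. Gpc4, a glypican that carries heparan sulfate on the cell surface, fell in both ventricles with hypoxia, by 0.65 on the log2 scale in each (adjusted p = 0.00909 in RVH against RVN and 0.0325 in LVH against LVN, edgeR). It was the only gene called lower of the 17 other proteoglycans tested in either comparison. Prg4, the lubricin of joint and tendon surfaces, rose in RVH against RVN with a log2 fold change of 1.87 ± 0.54 (SE; adjusted p = 0.0406, edgeR) from a mean of 1.25 TPM to 5.03 TPM. Srgn, the proteoglycan of blood cell granules, had a log2 fold change of 0.36 ± 0.12 (SE; adjusted p = 0.0607, edgeR) there.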
